A study of Arabidopsis thaliana with 4 samples.

Results

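The 10 genes described here are the iron-regulator genes *BTS*, *PYE*, *ILR3*, *BHLH34*, *BHLH104*, *BHLH115* and *URI*, together with 3 genes of iron handling, *OPT3*, *FRO3* and *NAS4*. They were taken by identifier from the 33854 genes listed for each library, and all 10 were found. They were chosen by pathway role and by their measured FPKM difference between the genotypes of this experiment, which was already known. The values of that difference are therefore given as a description, and nothing is read from how many of them differ or pass a test.

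Iron deficiency in Arabidopsis is answered by a cascade of basic helix-loop-helix (bHLH) transcription factors. At its top are the subgroup IVc factors ILR3 (also named bHLH105), bHLH34, bHLH104 and bHLH115, which act together with the subgroup IVb factor URI (bHLH121) to activate the subgroup Ib bHLH genes, *PYE* and *BTS*. BRUTUS (BTS) is an E3 ubiquitin ligase with hemerythrin domains that marks several IVc proteins for degradation and so holds the response back, while POPEYE (PYE), a IVb factor, represses genes of iron handling. *NAS4*, which encodes a nicotianamine synthase, and *FRO3*, which encodes a ferric reductase of mitochondria, are known targets of PYE, and OPT3 is a phloem transporter that takes part in signalling the iron state of the shoot to the root. *BTS*, *PYE*, *OPT3*, *FRO3* and *NAS4* are known to be induced by iron deficiency, whereas the IVc factors and URI are known to be controlled to a large part at the protein level.

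RNA-seq was performed on 12-day-old seedlings of the wild type Col-0 and of *35S-COLDAIR*, with 2 libraries per genotype. The *35S-COLDAIR* seedlings carry *COLDAIR*, a noncoding RNA sequence from the first intron of *FLC*, under the constitutive *CaMV 35S* promoter in the Col-0 background, and a single transgenic line was sequenced. All seedlings were grown on Murashige and Skoog medium at 22 °C with 16 h of light and 8 h of dark, so both genotypes had the same medium and no iron treatment was compared. Whole seedlings were used, and fewer cells that express a gene cannot be told apart from less RNA per cell.

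Levels are given in FPKM, fragments scaled by transcript length and by the number of mapped fragments, in which genes of unequal length can be compared. The libraries summed to between 928299.1 and 951939.8 FPKM, with 22411 to 22623 genes above 0. The fragment numbers are not part of the values. The steps of the lowest values gave *35S-COLDAIR* a depth of 1.09 times that of Col-0 in replicate 1 and of 1.13 times in replicate 2. *FLC*, the host gene of *COLDAIR*, measured 2.05 and 1.13 FPKM in the Col-0 libraries of replicates 1 and 2, against 43.4 and 37.6 FPKM in their *35S-COLDAIR* counterparts, so the labelled genotypes were apart at this gene. Differences are on the log2(FPKM + 1) scale and were taken over the 20142 genes that averaged at least 0.5 FPKM, among them all 10 genes. Each table of values held 1 library of each genotype, both of the same replicate number, and the sources used here do not say that the tables were scaled together, so for the 10 genes the level in each replicate is given beside the mean difference. Nor do the labels say that the replicates were separate cultures, and any p-value measures only the spread between these libraries. Unless a replicate block is named, the standard errors and p-values came from a fit without one, so the difference between replicates enters them.

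*BTS* (AT3G18290) is located on chromosome 3 from 6273966 to 6280562 on the plus strand of TAIR10.1 and has 14 exons. *PYE* (AT3G47640, 17567126 to 17569394, plus strand), *BHLH34* (AT3G23210, 8283003 to 8285081, minus strand) and *URI* (AT3G19860, 6903757 to 6906207, plus strand) are also on chromosome 3. Chromosome 1 holds *BHLH115* (AT1G51070, 18927810 to 18929762, plus strand), *FRO3* (AT1G23020, 8149868 to 8153796, minus strand) and *NAS4* (AT1G56430, 21136835 to 21138277, plus strand), the last with a single exon. Chromosome 4 holds *BHLH104* (AT4G14410, 8299397 to 8301667, plus strand) and *OPT3* (AT4G16370, 9247302 to 9250343, minus strand), and *ILR3* (AT5G54680, 22216934 to 22219274, plus strand) is on chromosome 5. In the annotation, *ILR3*, *BHLH115* and *FRO3* overlap genes of the opposite strand, which are AT5G08235 and AT5G54690 for *ILR3*, AT1G51080 for *BHLH115* and AT1G23010 for *FRO3*. The sources do not state that strands were counted apart, so reads of these pairs cannot be assigned with certainty.

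Many bHLH factors bind the G-box, CACGTG, a palindrome that reads the same on both strands. Of the 10 promoter windows, each from 250 bases before to 50 bases after the annotated start of the gene, 3 held a G-box, those of *BTS*, *OPT3* and *FRO3*. Over all 27443 protein-coding genes with such a window, 7.68% held one. The *BTS* window held 3 of them, at bases -146 to -141, -124 to -119 and -70 to -65 counted from the start as base 1. The *OPT3* window held 1 at -78 to -73, and the *FRO3* window held 1 that spans the start, from -3 to 3. The evening element AAAATATCT, a motif of clock-controlled promoters that was searched on both strands, was found in 0 of the 10 windows and in 2.82% of all windows. A match describes the letters of the window and not a bound site. The windows are shown for the 3 genes with a G-box and for *PYE*, whose level varied most between libraries and whose window held none, with the G-boxes in capitals (*BTS*, chr3:6273716-6274015, plus strand; *OPT3*, chr4:9250294-9250593, minus strand; *FRO3*, chr1:8153747-8154046, minus strand; *PYE*, chr3:17566876-17567175, plus strand; TAIR10.1, RefSeq).
BTS: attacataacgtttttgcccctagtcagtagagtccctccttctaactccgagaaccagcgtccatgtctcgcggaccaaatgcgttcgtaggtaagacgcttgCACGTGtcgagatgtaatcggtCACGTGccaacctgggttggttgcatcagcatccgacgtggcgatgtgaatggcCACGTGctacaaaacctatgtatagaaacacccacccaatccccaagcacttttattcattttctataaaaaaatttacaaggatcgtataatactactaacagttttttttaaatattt
OPT3: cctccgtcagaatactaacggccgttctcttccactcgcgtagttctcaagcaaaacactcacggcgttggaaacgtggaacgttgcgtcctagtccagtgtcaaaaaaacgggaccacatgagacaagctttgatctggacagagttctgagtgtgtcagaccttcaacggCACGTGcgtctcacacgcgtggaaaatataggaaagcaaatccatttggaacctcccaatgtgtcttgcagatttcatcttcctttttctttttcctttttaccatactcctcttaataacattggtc
FRO3: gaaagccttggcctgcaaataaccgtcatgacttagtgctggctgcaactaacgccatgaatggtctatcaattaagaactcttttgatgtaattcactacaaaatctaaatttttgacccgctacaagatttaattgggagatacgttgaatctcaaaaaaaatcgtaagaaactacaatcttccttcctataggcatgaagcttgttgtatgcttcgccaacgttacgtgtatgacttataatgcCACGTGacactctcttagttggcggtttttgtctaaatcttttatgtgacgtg
PYE: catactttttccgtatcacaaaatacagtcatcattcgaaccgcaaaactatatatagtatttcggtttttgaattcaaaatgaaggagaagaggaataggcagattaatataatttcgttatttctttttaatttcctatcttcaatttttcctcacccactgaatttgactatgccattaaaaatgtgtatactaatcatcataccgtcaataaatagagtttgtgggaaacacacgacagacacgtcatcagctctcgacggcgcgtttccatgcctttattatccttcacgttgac

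Averaged over the 4 libraries, *ILR3* had the highest level of the 10 genes at 91.6 FPKM, followed by *OPT3* at 73.5, *BHLH115* at 71.5, *BTS* at 55.3, *URI* at 48.7, *BHLH104* at 38.3, *FRO3* at 24.8, *PYE* at 14.0, *NAS4* at 11.4 and *BHLH34* at 7.06 FPKM. Along this order, neighbouring genes had separate ranges in 2 places, between *BHLH104* and *FRO3* and between *NAS4* and *BHLH34*. The ranges of *FRO3* and *PYE* overlapped, although *FRO3* was above *PYE* in each library. The other neighbours overlapped and did not keep their order in every library, so that order was not resolved. Among the 4 IVc genes, *ILR3* lay above *BHLH115*, *BHLH115* above *BHLH104* and *BHLH104* above *BHLH34* in each library, which makes *BHLH34* the lowest IVc transcript in these seedlings. The plot of levels by library shows that the genes differ in spread as well as in level.

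**Figure D1:**
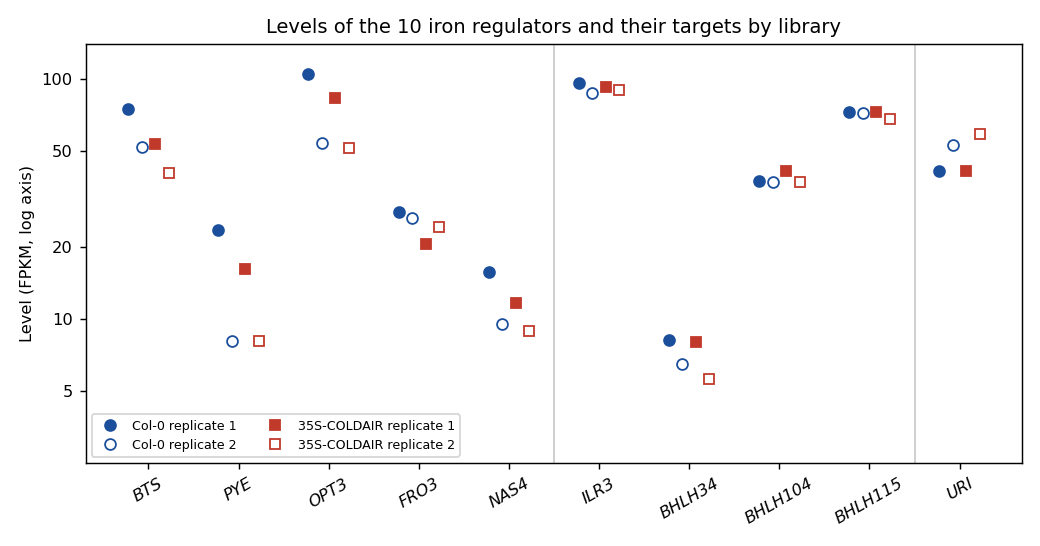
Levels of the 10 genes in FPKM on a log axis, with 1 point per library (circles, Col-0; squares, 35S-COLDAIR; filled, replicate 1; open, replicate 2). Grey lines part the 5 genes known as induced by iron deficiency, the 4 IVc bHLH genes and *URI*; PYE lies between 8.10 and 23.5 FPKM, whereas BHLH115 lies between 68.4 and 73.0 FPKM.

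*BTS* gave 74.8 FPKM (replicate 1) and 51.8 FPKM (replicate 2) in the wild type, and the transgenic line gave 53.7 and 40.7 FPKM. Within each replicate the *35S-COLDAIR* library lay below that of Col-0, at 71.8% of its level in replicate 1 and 78.5% in replicate 2. The genotypes overlapped, since the replicate 1 library of *35S-COLDAIR* exceeded the replicate 2 library of Col-0. The Col-0 mean of 63.3 ± 16.2 FPKM (SD, n = 2) compared with a *35S-COLDAIR* mean of 47.2 ± 9.18 FPKM (SD, n = 2), and the log2 difference was -0.41 (standard error 0.228). Of all 20142 genes, 2.23% had a lower log2 difference. When single libraries were omitted, the *BTS* difference ranged from -0.67 to -0.15 and kept its sign.

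*PYE* had levels of 23.5 (replicate 1) and 8.10 FPKM (replicate 2) in Col-0, compared with 16.2 and 8.11 FPKM, respectively, in *35S-COLDAIR*. The *35S-COLDAIR* level was 68.8% of the Col-0 level in replicate 1, whereas both genotypes had the same level in replicate 2, with a log2 difference of 0.00. The mean difference of -0.26 (standard error 0.573) thus rested on replicate 1. It was 0.46 without replicate 1 of Col-0 and 0.20 without replicate 2 of *35S-COLDAIR*, the opposite sign, and it was -0.97 without replicate 2 of Col-0 and -0.71 without replicate 1 of *35S-COLDAIR*.

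The 2 known PYE targets among the 10 genes were at lower levels in *35S-COLDAIR* in both replicates, whereas *PYE* itself was lower in replicate 1 only. *NAS4* measured 15.7 and 9.54 FPKM in the Col-0 libraries of replicates 1 and 2, against 11.6 and 8.86 FPKM in their *35S-COLDAIR* counterparts, which was 74.0% of Col-0 in replicate 1 and 92.9% in replicate 2. The genotypes overlapped, and the log2 difference was -0.25 (standard error 0.268), or 0.08 without replicate 1 of Col-0. *FRO3* gave 28.0 FPKM (replicate 1) and 26.4 FPKM (replicate 2) in the wild type, and the transgenic line gave 20.5 and 24.2 FPKM. It was the one gene of the 10 whose *35S-COLDAIR* libraries were both below both Col-0 libraries, an arrangement that 14.3% of all tested genes had in this direction. Its log2 difference was -0.28 (standard error 0.112), with -0.43 in replicate 1 and -0.12 in replicate 2, and it stayed between -0.39 and -0.16 with each library left out in turn.

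*OPT3*, the phloem transporter, had levels of 105.0 (replicate 1) and 54.3 FPKM (replicate 2) in Col-0, compared with 83.4 and 51.5 FPKM, respectively, in *35S-COLDAIR*. Its libraries were ordered by replicate rather than by genotype, and its log2 difference between the genotypes was -0.20 (standard error 0.394), with -0.33 in replicate 1 and -0.07 in replicate 2. Without replicate 1 of Col-0 it was 0.27, and without replicate 2 of *35S-COLDAIR* it was 0.14. The summed level of *BTS*, *PYE*, *OPT3*, *FRO3* and *NAS4* was 247 (replicate 1) and 150 FPKM (replicate 2) in the wild type, compared with 185 and 133 FPKM in the transgenic line. In replicate 1 all 5 genes were lower in *35S-COLDAIR* by at least 0.3 on the log2 scale, as were 7.85% of all tested genes. In replicate 2 this held for *BTS* alone, against 7.74% of all tested genes. None of the 10 genes was higher by that much in replicate 1, which 8.9% of all tested genes were. Whether the difference depended on the replicate was not tested, since each replicate held 1 library per genotype.

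Of the IVc factors that act upstream of these genes, *ILR3*, *BHLH104* and *BHLH115* had smaller standard errors than any of the 5, and *BHLH34* did not. These errors include the difference between replicates, which was larger in size for *BTS*, *PYE*, *OPT3* and *NAS4* than for *ILR3*, *BHLH104* and *BHLH115*. *ILR3* measured 96.1 and 87.6 FPKM in the Col-0 libraries of replicates 1 and 2, against 92.6 and 90.0 FPKM in their *35S-COLDAIR* counterparts, a log2 difference of -0.01 (standard error 0.0796). *BHLH115* gave 73.0 FPKM (replicate 1) and 72.0 FPKM (replicate 2) in the wild type, and the transgenic line gave 72.6 and 68.4 FPKM, a log2 difference of -0.04 (standard error 0.0725). *BHLH104* had levels of 37.5 (replicate 1) and 37.2 FPKM (replicate 2) in Col-0, compared with 41.4 and 37.1 FPKM, respectively, in *35S-COLDAIR*, a log2 difference of 0.07 (standard error 0.0879). For none of these 3 genes were the genotypes separated, and their log2 differences lay between the quartiles of all tested genes, -0.09 and 0.09. *BHLH34*, the lowest of the 4, measured 8.14 and 6.501 FPKM in the Col-0 libraries of replicates 1 and 2, against 7.98 and 5.63 FPKM in their *35S-COLDAIR* counterparts, a log2 difference of -0.10 (standard error 0.20) that was 0.12 without replicate 2 of *35S-COLDAIR* and 0.04 without replicate 1 of Col-0. The summed level of the 4 IVc genes stayed between 201 and 215 FPKM over the libraries, whereas that of the 5 genes above ran from 133 to 247 FPKM.

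*URI*, the IVb partner of the IVc factors, gave 41.5 FPKM (replicate 1) and 53.0 FPKM (replicate 2) in the wild type, and the transgenic line gave 41.2 and 59.1 FPKM. Both replicate 2 libraries were above both replicate 1 libraries, and *URI* was the one gene of the 10 with this order. The log2 difference between the genotypes was 0.07 (standard error 0.217), and it changed sign when replicate 1 of Col-0 or replicate 2 of *35S-COLDAIR* was left out, to -0.10 and -0.18.

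Over the 10 genes, the median log2 difference between the genotypes was -0.15, against 0.00 over all tested genes. It was -0.19 in replicate 1 and -0.07 in replicate 2. *BTS*, *OPT3*, *FRO3*, *NAS4*, *BHLH34* and *BHLH115*, 6 of the 10, were lower in *35S-COLDAIR* in both replicates, as were 27.0% of all tested genes, and 0 of the 10 were higher in both, against 28.2%. In limma with Benjamini-Hochberg adjustment over all 20142 genes, 1 gene in each direction passed an adjusted p of 0.05 (0.00496% each), neither of them among the 10, and 2.59% of all genes had an unadjusted p under 0.05. These shares are given for scale, and nothing is read from them about the 10 genes, whose choice used the same contrast. The median of the 10 turned to 0.05 without replicate 1 of Col-0 and to 0.01 without replicate 2 of *35S-COLDAIR*. Either omission leaves unequal replicates in the genotypes, so the difference between replicates enters these values.

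**Figure D2:**
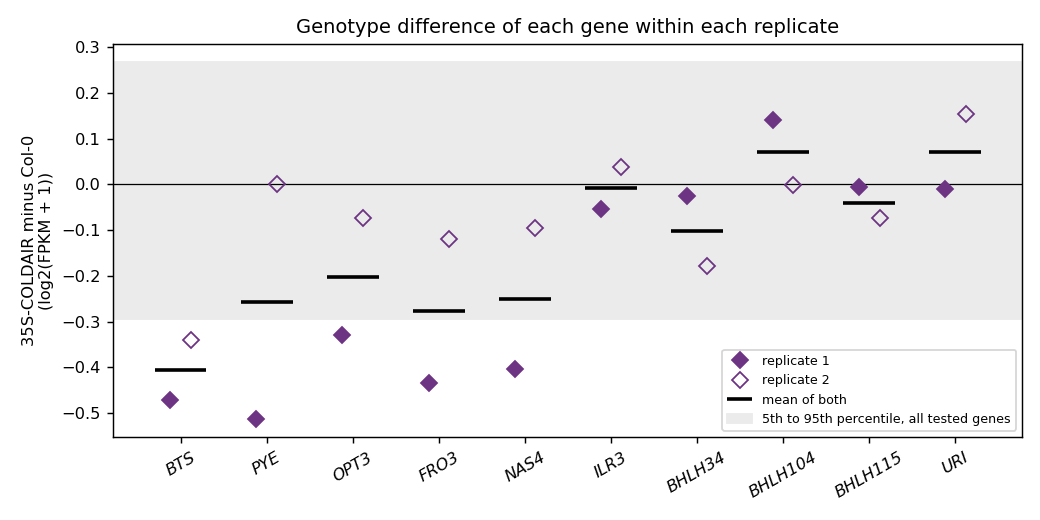
Difference of 35S-COLDAIR minus Col-0 in log2(FPKM + 1) for each gene within replicate 1 (filled) and replicate 2 (open), with the mean as a bar and the 5th to 95th percentile of all tested genes, -0.29 to 0.27, in grey. BTS has the lowest mean at -0.41, and the differences of the 5 genes on the left are larger in size in replicate 1 than in replicate 2.

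For all of these genes except *FRO3*, the mean difference between the replicates was larger in size than that between the genotypes. The share of all tested genes with this order was not counted, so nothing is read from it. Over all tested genes, the 5th to 95th percentile was -0.41 to 0.40 between replicates and -0.29 to 0.27 between genotypes. The values of the contrast between replicates were also known when the genes were chosen, so its shares are given for scale only. The *PYE* level in replicate 1 was 2.90 times that in replicate 2 in Col-0 and 1.99 times in *35S-COLDAIR*. For *OPT3* the corresponding values were 1.93 in Col-0 and 1.62 in *35S-COLDAIR*, for *NAS4* they were 1.65 and 1.31, and for *BTS* 1.44 and 1.32. For 8 of the 10 genes both replicate 2 libraries were below both replicate 1 libraries, as for 24.9% of all tested genes, and for *URI* both were above, as for 22.4%. *FRO3* was the exception, with overlapping replicates. A mean decrease of at least 0.3 on the log2 scale from replicate 1 to replicate 2 was seen for *PYE* (-1.17), *OPT3* (-0.81), *NAS4* (-0.51), *BTS* (-0.46) and *BHLH34* (-0.36), against 8.32% of all tested genes, and an increase of that size for *URI* (0.43), against 7.93%. Of all tested genes, 0.377% had a lower replicate difference than *PYE*. The replicates have no labelled difference in sampling, and this contrast was described and not tested.

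Clock genes were split between the replicates as well. Of the 10 clock genes listed, all 10 had replicates that did not overlap, 3 with lower and 7 with higher levels in replicate 2, against 24.9% and 22.4% of all tested genes. *CCA1*, a morning-phased clock gene, had levels of 51.6 (replicate 1) and 27.8 FPKM (replicate 2) in Col-0, compared with 44.3 and 23.6 FPKM, respectively, in *35S-COLDAIR*. *LHY*, its close relative, measured 16.6 and 7.11 FPKM in the Col-0 libraries of replicates 1 and 2, against 10.02 and 4.68 FPKM in their *35S-COLDAIR* counterparts. *LUX*, an evening-phased gene, gave 9.37 FPKM (replicate 1) and 17.0 FPKM (replicate 2) in the wild type, and the transgenic line gave 15.1 and 22.8 FPKM. In limma, 0 of the 10 clock genes passed the adjusted p of 0.05 between the genotypes. The same 3 clock genes were lower and the same 7 higher in *35S-COLDAIR* in both replicates as in replicate 2 relative to replicate 1, where 27.0% of all tested genes were lower and 28.2% higher in *35S-COLDAIR* in both replicates. The part of the clock genes' shift in the levels of *BTS*, *PYE*, *OPT3* and *NAS4* was not tested.

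**Figure D3:**
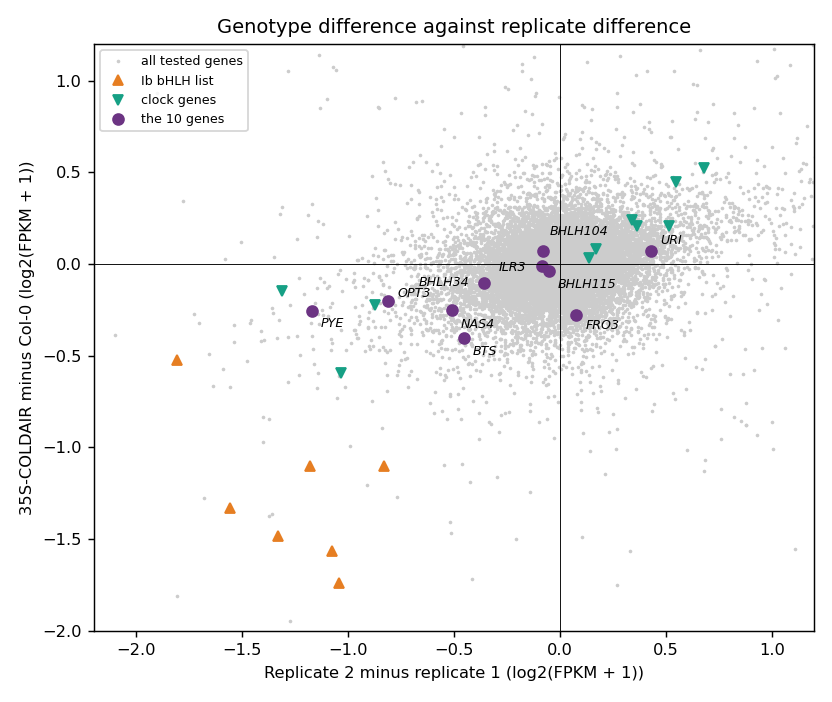
Mean genotype difference (vertical, 35S-COLDAIR minus Col-0) against mean replicate difference (horizontal, replicate 2 minus replicate 1), both in log2(FPKM + 1), for the 10 genes (purple), the Ib bHLH list (orange), the clock genes (green) and all tested genes within the axis limits (grey). PYE lies at -1.17 on the horizontal and -0.26 on the vertical axis. ILR3, BHLH104 and BHLH115 lie near 0 on both axes. All 7 genes of the Ib list, which includes the IRON MAN genes, lie below 0 on both.

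The further genes of the pathway were taken from lists also made with earlier results known. The Ib list holds *BHLH38*, *BHLH39*, *BHLH100* and *BHLH101*, the targets of the IVc factors that switch on iron uptake. It also holds the IRON MAN genes AT1G47400 (*IMA1*), AT1G47395 (*IMA2*) and AT2G30766 (*IMA3*), which are not bHLH genes. The reference annotates these IRON MAN genes as uncharacterized proteins. In limma, 0 of these 7 genes passed the adjusted p of 0.05 and 3 had an unadjusted p under 0.05, against 2.59% of all tested genes, while all 7 were lower in *35S-COLDAIR* in both replicates, against 27.0%. Only 1 gene in each direction passed among all 20142, so a gene that did not pass was not thereby shown to be unchanged. *BHLH38* had levels of 23.8 (replicate 1) and 12.8 FPKM (replicate 2) in Col-0, compared with 7.49 and 2.59 FPKM, respectively, in *35S-COLDAIR*, a log2 difference of -1.74 (standard error 0.510, adjusted p = 0.9998 from limma). The log2 difference was -1.48 for *BHLH39*, -1.57 for *BHLH100*, -1.10 for *BHLH101*, -1.33 for AT1G47400, -1.10 for AT1G47395 and -0.52 for AT2G30766, each at an adjusted p of 0.9998 from limma. In replicates 1 and 2 it was -1.75 and -0.91 for AT1G47400 and -0.84 and -0.21 for AT2G30766, the genes of the list whose replicates lay furthest apart. The list's median of -1.33 compares with -0.15 for the 10 genes described here and 0.00 for all tested genes. In replicate 2, the 7 genes were also lower than in replicate 1, by a median of -1.18.

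Of the relatives of *BTS* and *PYE*, AT1G74770 (*BTSL1*) is named by the reference as the best protein match of BTS. It measured 4.01 and 4.09 FPKM in the Col-0 libraries of replicates 1 and 2, against 4.29 and 3.72 FPKM in their *35S-COLDAIR* counterparts. AT1G18910 (*BTSL2*), a further relative of *BTS*, encodes a zinc ion binding protein with annotated zinc fingers. It gave 5.15 FPKM (replicate 1) and 5.30 FPKM (replicate 2) in the wild type, and the transgenic line gave 5.52 and 5.15 FPKM. The IVb gene *BHLH11* had levels of 3.69 (replicate 1) and 3.54 FPKM (replicate 2) in Col-0, compared with 3.82 and 2.68 FPKM, respectively, in *35S-COLDAIR*. Their log2 differences were -0.01, 0.02 and -0.13, the last with 0.04 in replicate 1 and -0.30 in replicate 2, and 0 of the 3 passed in limma, with 0 at an unadjusted p under 0.05. The *BTS* level, averaged over the libraries, was 55.3 FPKM, against 4.03 FPKM for AT1G74770 and 5.28 FPKM for AT1G18910.

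Of 11 genes of root iron uptake, 9 were tested and 0 passed in limma, with 0 at an unadjusted p under 0.05. Their log2 differences ran from -0.47 for *IRT1*, the root iron transporter, to 0.16 for *F6'H1*, an enzyme of coumarin synthesis, with a median of -0.16. Of 17 other *FRO*, *NAS* and transport genes, 14 were tested and 0 passed, again with 0 at an unadjusted p under 0.05. In this list *NRAMP4*, a vacuolar iron exporter, had the lowest log2 difference at -0.37 and *YSL2*, of the transporter family for metal-nicotianamine complexes, the highest at 1.10. The *YSL2* value rested on replicate 1, with 2.70 FPKM in Col-0 and 13.9 FPKM in *35S-COLDAIR* and a log2 difference of 2.01, while replicate 2 gave 0.20. Of 5 genes of iron storage, 4 were tested and 0 passed, with 1 at an unadjusted p under 0.05, against 2.59% of all tested genes. *FER1*, the ferritin gene with the highest log2 difference at 0.47, measured 55.4 and 74.8 FPKM in the Col-0 libraries of replicates 1 and 2, against 88.6 and 90.4 FPKM in their *35S-COLDAIR* counterparts, and *FER2* was lowest at -0.19. Thus both *35S-COLDAIR* libraries were above both Col-0 libraries for *FER1*, as for 14.8% of all tested genes.

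**Figure D4:**
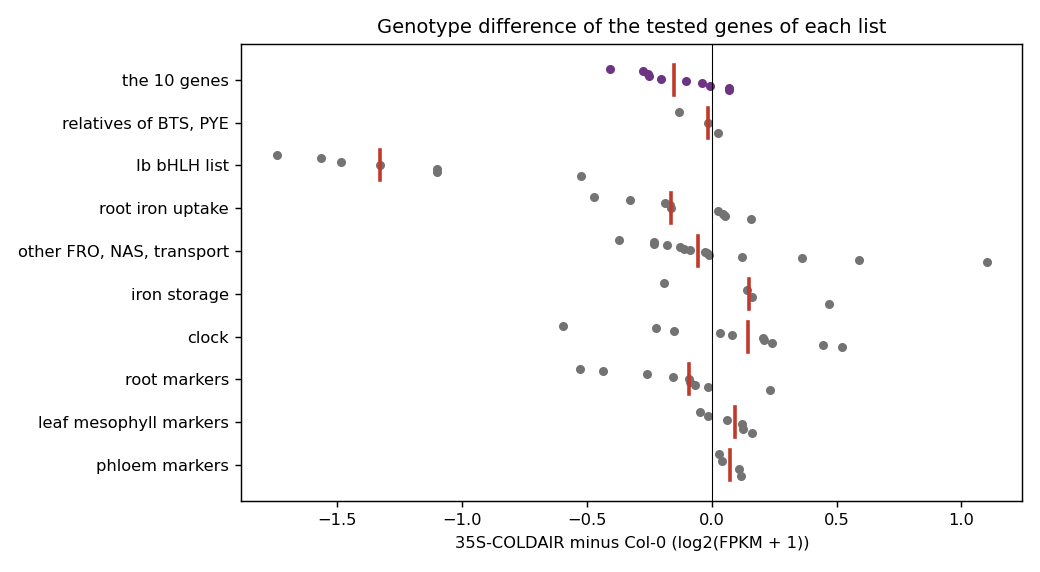
Genotype difference (35S-COLDAIR minus Col-0, log2(FPKM + 1)) of each tested gene, by list, with the median of each list as a red line and small vertical offsets that only part the points. The 10 genes have a median of -0.15, between the lowest list, the Ib bHLH list, IRON MAN genes included, at -1.33 and the highest, the iron storage genes, at 0.15. The medians of root iron uptake, at -0.16, and of the root markers, at -0.09, lie near that of the 10 genes.

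Profiles were compared by the root mean square difference of log2(FPKM + 1) over the 4 libraries, each gene centred on its own mean. The genes nearest to *BTS* on this scale were AT3G59710 (0.0150), *CPK15* (0.0236), which encodes a calcium-dependent protein kinase, and AT5G50335 (0.0375). AT3G59710 ran from 0.706 to 2.18 FPKM and *CPK15* from 1.52 to 3.57 FPKM, against 40.7 to 74.8 FPKM for *BTS*. At such low levels the added 1 FPKM shrinks log2 differences, and in FPKM alone both genes changed by a larger factor than *BTS*. AT5G50335 was closer in level to *BTS*, at 32.8 to 60.6 FPKM. The genes nearest to *PYE* were AT4G29780 (0.0653), AT1G48100 (0.0836) and *CLE19* (0.0851). *CLE19* encodes a peptide of the CLE family and was listed at 0 in both replicate 2 libraries. Among the 10 genes, *NAS4* was the nearest to *BTS*, at 0.0944 and rank 107 of all tested genes, and *OPT3* was the nearest to *PYE*, at 0.193 and rank 50. A likeness over 4 libraries describes these libraries only.

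Markers of root, leaf mesophyll and phloem were listed because the 10 genes are expressed in unlike tissues. The 9 root markers summed to 67.1 (replicate 1) and 74.2 FPKM (replicate 2) in the wild type, compared with 68.7 and 55.6 FPKM in the transgenic line. Their median log2 difference was -0.09, with 0.08 in replicate 1 and -0.31 in replicate 2. At the ends were *EXPA7* (-0.53), a root hair expansin, and *NRT2.1* (0.23), a nitrate transporter. *NRT2.1* averaged 0.562 FPKM, close to the filter of 0.5 FPKM, and differed more between replicates (0.80) than between genotypes. The 4 phloem markers summed to 166 and 172 FPKM in the wild type, compared with 190 and 172 FPKM in the transgenic line, with log2 differences from 0.03 for *SEOR1* to 0.12 for *APL*. The 6 leaf mesophyll markers had log2 differences from -0.05 for *LHCB2.1* to 0.16 for *GLDP1*. They summed to 26953.6 and 25375.5 FPKM in the wild type, compared with 28519.6 and 26337.4 FPKM in the transgenic line. None of the root, phloem and mesophyll markers was listed at 0 in any library, and in limma 0 of them passed the adjusted p of 0.05. Of the 9 root markers, 2 had an unadjusted p under 0.05, against 2.59% of all tested genes. The root markers thus summed lowest in replicate 2 of *35S-COLDAIR*, the library with the lowest *BTS* level. Their sum was highest in replicate 2 of Col-0, where *BTS* was at 51.8 FPKM, while *BTS* was highest in replicate 1 of Col-0, at 74.8 FPKM. In replicate 1 the root sum was higher in *35S-COLDAIR* than in Col-0, whereas *BTS* was lower. The part of the root markers in the *BTS* difference was not tested.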

How the data were processed

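Poly-A RNA of 12-day-old seedlings was sequenced in 2 libraries each of Col-0 and *35S-COLDAIR*. The values deposited by the authors are FPKM per gene and library in 2 tables. The paper's methods name TopHat and cuffdiff with the TAIR10 genome, whereas the submitters' processing notes name STAR 2.5.2b and Cuffdiff. The gene annotation, strand setting and scaling between tables are not given in the sources used here. Columns were assigned to libraries by genotype and replicate number in the column names, and the tables' own names carry the other replicate number. Because FPKM values are not counts, log2(FPKM + 1) was compared with limma 3.58.1 in R 4.3.3 (lmFit, eBayes with a variance trend, no block, Benjamini-Hochberg adjustment, threshold 0.05) over genes averaging at least 0.5 FPKM. The fit was tested on simulated data with independent noise in each library. No shift shared by same-numbered libraries was simulated, so that test does not cover such a shift. Positions, names and promoters came from TAIR10.1 (RefSeq), whose nuclear chromosomes are those of TAIR10, and all 82 listed identifiers matched it.

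The 10 genes and all lists were chosen with earlier results of these data known. The text names all 10, every gene of the Ib list and of the relatives list, the highest and lowest log2 difference of each other list, and the 3 nearest profiles of *BTS* and *PYE*. *CCA1* was named after its values were seen. Alternatives changed the pseudocount (0.1 FPKM), dropped the filter or raised it to 1 FPKM, normalized by quantiles, centred each library on its median, dropped the variance trend, added a replicate block, took the ratio of mean FPKM, or left out single libraries.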

Additional observations from a re-analysis of the deposited data

How the results depend on the processing

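The median log2 difference of the 10 genes (-0.15) stayed between -0.16 and -0.15 under a pseudocount of 0.1 FPKM, quantile normalization and centring. It was -0.17 as the ratio of mean FPKM. The other filters, no variance trend and the block could not change it. All 10 genes pass each filter, the trend enters only the error, and each replicate holds 1 library of each genotype. When single libraries were omitted, the median ranged from -0.28 (without replicate 2 of Col-0) to 0.0495 (without replicate 1 of Col-0), so its sign changed with the library omitted. Each omission leaves unequal replicates in the genotypes, so the difference between replicates enters that between genotypes. The same limit holds for the single genes. Within replicates 1 and 2 the median was -0.19 and -0.07. *BTS* and *FRO3* kept their sign in all 12 alternatives, whereas each of the other 8 genes changed sign when 1 or 2 of the libraries were left out singly, and in no other alternative. The alternatives that changed the filter, the variance trend or the block could not alter a sign. Over all genes, 1 was higher and 1 lower in limma. The number of lower genes was 2 with a pseudocount of 0.1 FPKM, and that of higher genes was 2 without a variance trend. When single libraries were omitted, 0 genes were higher and 0 to 1 lower. With the replicate block, limma gave 3 higher and 4 lower genes (1608 at an unadjusted p under 0.05, against 522 without it). The deviations of same-numbered libraries had a correlation of 0.37 across genes, but the labels do not say that a number marks a shared batch, and 2 pairs cannot show it. An exact fragment number is not known for these values, so no counting interval was given.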
